A study of Caenorhabditis elegans with 2 samples.

Results

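Autosomal coding exon regions are the regions of a UNC-39 ChIP-seq list whose summit, the point of highest signal, lies on chromosomes I to V inside an annotated coding segment of a protein-coding gene. There were 6383 of them among the 30000 regions of the pooled list, 24193 of which were autosomal, and they lay in 4959 of 17242 autosomal protein-coding genes. UNC-39 is a homeodomain protein of the worm Caenorhabditis elegans and belongs with vertebrate SIX4 and SIX5. It was mapped by ChIP-seq, in which chromatin is sheared, pulled down with an antibody and sequenced, in intact L4 larvae, the stage before adulthood. The strain was OP186, genotype unc-119(ed3) III; wgIs186, whose transgene carries UNC-39 with a C-terminal GFP-FLAG tag. Males and hermaphrodites were pooled, and their age is not given beyond the stage. All material was of this 1 kind, in biological replicates 1 and 2, so no condition was compared. Whole animals mix all cell types, and a region cannot be tied to the cells that make the tagged protein.

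Relatives of SIX4 bind short sequences with the core TGATAC or TGACAC, mostly in promoters, introns and the stretches between genes. UNC-39 is known in the worm for its part in mesoderm and in cell migration. Coding exons are read by the ribosome, so their sequence follows the protein, and they are richer in G and C than the rest of the worm genome. A ChIP-seq list made to feed a replicate comparison is deliberately long and holds background as well as peaks.

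Each region carries the authors' own signal value from their peak caller, used here to rank and describe regions within a list and never to compare amounts between lists. Region width is 404 bases in replicate 1 and 400 bases in the other lists. Read depth was not given with the lists and is unknown. Intervals printed here are exact 95% intervals and cover counting error over regions only, and regions of 1 library are not replicates of one another. No p-values are given, because there was no second condition and regions are not independent samples.

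A few stretches are printed from the 20 strongest of these regions, chosen for their strength or for the words they hold, and others of the 20, such as citk-1, hold none of the words. They are the coding sequence around the summit, read 5′ to 3′ on the coding strand of ce11 (WBcel235), as far as 60 bases to each side or to the end of the exon. F07B10.4 is the second strongest, rab-3 is the best repeated of those with a coding summit in every list, and ptr-22, epg-5 and gex-3 hold a SIX4-type core. Capitals mark the 6-base words that were searched, in either orientation, so GTATCA is TGATAC on the other strand and CTTATC is GATAAG.
F07B10.4, chrV:11261773-11261893, minus strand: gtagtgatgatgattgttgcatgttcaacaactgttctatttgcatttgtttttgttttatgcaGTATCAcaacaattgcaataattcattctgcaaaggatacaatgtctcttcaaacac
rab-3, chrII:5722703-5722793, minus strand: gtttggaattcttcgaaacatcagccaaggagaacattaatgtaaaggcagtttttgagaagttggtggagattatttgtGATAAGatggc
ptr-22, chrV:18923725-18923845, minus strand: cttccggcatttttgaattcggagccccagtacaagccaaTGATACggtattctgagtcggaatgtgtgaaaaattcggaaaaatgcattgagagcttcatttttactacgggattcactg
epg-5, chrII:6605498-6605618, minus strand: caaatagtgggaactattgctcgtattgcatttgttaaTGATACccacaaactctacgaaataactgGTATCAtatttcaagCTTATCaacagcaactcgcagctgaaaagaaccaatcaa
gex-3, chrIV:12404435-12404527, plus strand: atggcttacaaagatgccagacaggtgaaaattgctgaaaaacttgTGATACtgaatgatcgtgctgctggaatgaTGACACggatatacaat

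Coding exons held about as many regions as their share of the chromosomes. The 6383 coding exon regions were 26.4% (25.8 to 26.9) of the autosomal regions, and coding exons make up 25.6% of the autosomal bases, 21.2 of 82.6 Mb. The share was 25.8% (6250 regions) in the list of replicate 1 and 28.8% (6996 regions) in that of replicate 2. Per Mb of annotated sequence, coding exons held 302 regions in the pooled list, against 282 in introns and 289 between genes. Exons of 5′ and 3′ untranslated sequence held 377 and 354 per Mb. Coding exons held 295 per Mb in replicate 1 and 331 in replicate 2, where the autosomes as a whole held 293 and 294, so the excess in coding exons was greatest in replicate 2.

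Chromosomes differed little in the pooled list. Coding exon regions per Mb of coding sequence numbered 291 on I, 290 on II, 304 on III, 317 on IV and 306 on V in the pooled list. The interval of every chromosome overlapped those of the others, that of IV reaching from 299 to 335. In replicate 2 chromosome III was highest, with 359 (340 to 379), and its interval did not meet that of V, with 323 (308 to 338). The central stretch of each chromosome, as long as both ends together, held 311 per Mb of coding sequence and the ends held 288. The same order was found in replicate 1, with 306 and 280, and in replicate 2, with 338 and 320.

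Coding exon regions were scarcer at the top of the lists. Of the 387 autosomal regions among the 500 strongest pooled regions, 69 (17.8%, 14.1 to 22) were in coding exons. The share was 21.6% (19.6 to 23.7) among the 2000 strongest and 24.0% (22.7 to 25.4) among the 5000 strongest. Replicate 1 followed the same course, with 17.2% (13.6 to 21.4), 23.4% and 24.3%. In replicate 2 the 500 strongest held 22.3% (18.2 to 26.8), against 28.8% over its whole list, and the 2000 and 5000 strongest had returned to 28.1% and 29.6%.

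**Figure D1:**
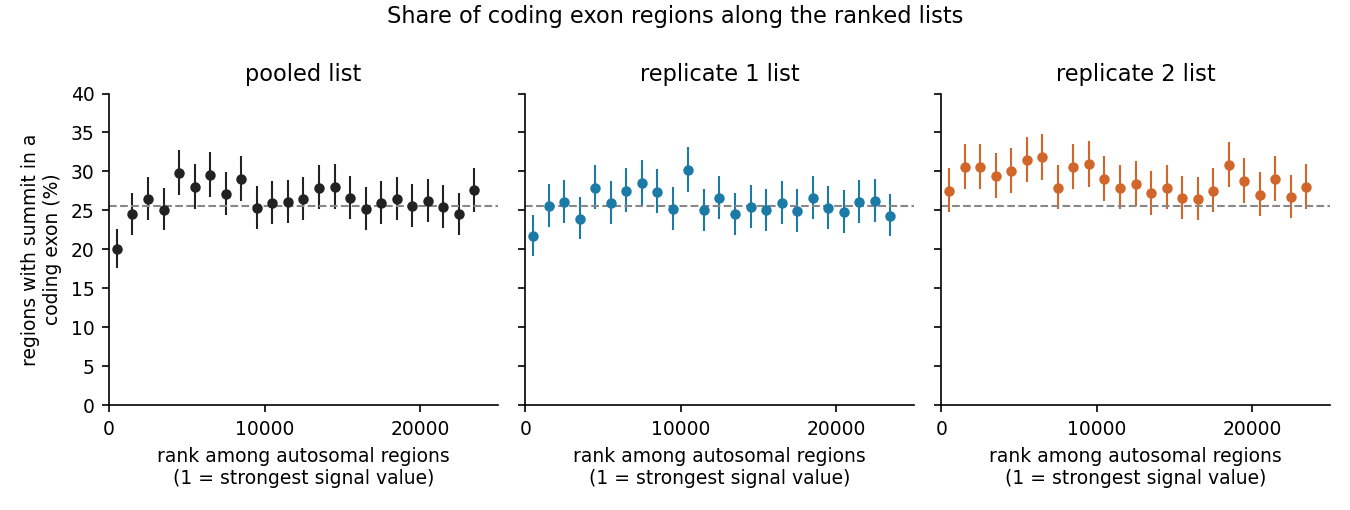
Share of coding exon regions in successive bins of 1000 autosomal regions ordered by signal value, from the strongest on the left, in each list; bars are exact 95% intervals and the dashed line is the 25.6% of autosomal bases that are coding. The leftmost bin holds 200 coding exon regions of 1000 in the pooled list and is at 21.7% in replicate 1 and 27.5% in replicate 2, above the line, and the later bins lie near or above the line.

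Read the other way, 69 of 6383 coding exon regions (1.08%, 0.842 to 1.37) were among the 500 strongest pooled regions, against 318 of 17810 other autosomal regions (1.79%, 1.60 to 1.99), where 1.6% of all autosomal regions were. Among the 2000 strongest were 334 coding exon regions (5.23%, 4.70 to 5.81) and 1213 others (6.81%, 6.45 to 7.19), with 6.39% over all autosomal regions. A −log10 q of at least 1 was reached by 3 coding exon regions and 81 others, with 0.347% over all. The median −log10 q was 0.0350 in coding exon regions and 0.0349 in others, and the highest values were 1.48 and 1.94. The optimal list, the 63 peaks that the authors took from the lists by IDR (irreproducible discovery rate, based on how ranks repeat between replicates), held 1 coding exon region and 41 others, with 0.174% over all.

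The shortfall was a matter of the extreme values and not of the middle of the distribution. The median signal value was 7.6 in coding exon regions and 7.6 in other autosomal regions. It was 5.41 and 5.37 in replicate 1, and 3.49 and 3.4 in replicate 2, in the same order. The value exceeded by 1 region in 100 was 16.3 in coding exon regions and 18.1 in the others, and the highest were 26.9 and 44.7. In replicate 1 the highest coding value was 17.9 against 34.6, and in replicate 2 it was 18.9 against 26.

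Within classes of G+C content the gap widened with G+C in the pooled list. In windows reaching 100 bases to each side of the summit with 45% G+C or more, 61 of 1196 coding exon regions (5.10%, 3.92 to 6.50) were among the 2000 strongest pooled regions, against 229 of 1448 others (15.8%, 14 to 17.8). Between 40% and 45% the shares were 5.18% and 9.37%, and between 35% and 40% they were 5.07% and 7.08%. Below 30% they were 5.64% (2.85 to 9.87) in coding exon regions and 3.49% (2.95 to 4.09) in the others. The coding exon share thus stayed near 5% in every class, while that of the others rose with G+C. In replicate 1 the class of 45% or more gave 5.25% and 12%. In replicate 2 it gave 7.75% and 15.1%, and there the coding share too was higher in G+C-rich windows, from 1.75% below 30% upwards. The others in replicate 2 were at 3.38% below 30%, so the coding share was the lower one there, unlike in the pooled list. Between 30% and 35% replicate 2 gave 4.57% and 4.92%. These classes were chosen after the data were seen.

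**Figure D2:**
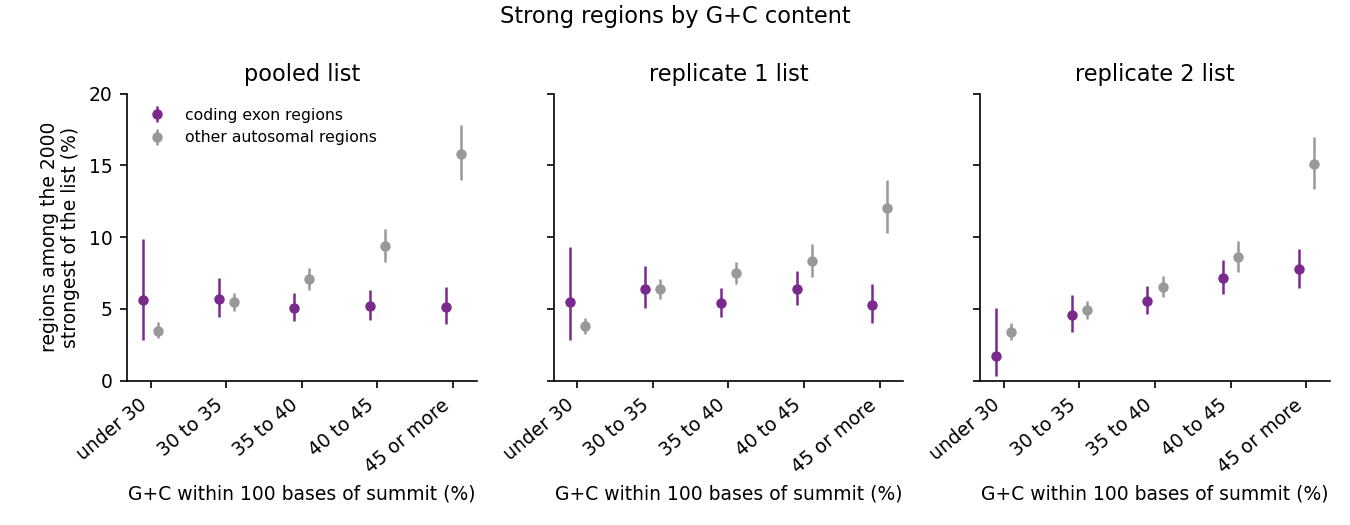
Share of regions among the 2000 strongest of each list, by G+C content within 100 bases of the summit, for coding exon regions (purple) and other autosomal regions (grey), with exact 95% intervals. At 45% G+C or more the coding exon regions lie at 5.10%, 5.25% and 7.75% and the others at 15.8%, 12% and 15.1%.

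The number of coding exon regions also depended on G+C, and differently in each replicate. In replicate 2 they numbered 225 per Mb of coding sequence below 30% G+C and 379 at 45% or more. In replicate 1 they numbered 290 and 268 in the same classes, and in the pooled list 257 and 296. The mean G+C of the windows was 39.9% ± 5.89 (SD over regions) in coding exon regions and 35.1% ± 6.76 in other autosomal regions. Windows centred on every autosomal coding base averaged 39.9%, so the pooled coding exon regions had the composition of coding sequence at large. The means in coding exon regions and others were 39.7% and 34.7% in replicate 1, and 40.6% and 35.5% in replicate 2.

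Short sequence words were about as frequent as in coding sequence at large. The SIX4-type core given above, on either strand and within 100 bases of the summit, stood in 15.6% of coding exon regions and 13.5% of other autosomal regions. Windows around all autosomal coding bases held it in 15.8% of cases. It was not more frequent in strong regions, with 13.5% (10.9 to 16.4) of the 638 strongest coding exon regions. The E-box CACGTG stood in 4.75% of coding exon regions, against 3.71% of others and 4.80% of coding windows. GATAAG, which factors of the GATA family bind, stood in 8.91%, against 7.48% and 8.41%. GTGAGT, which resembles a 5′ splice site, stood in 9.76%, against 6.95% and 9.51%. A match is a description of these letters only.

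Words that marked the strong regions elsewhere were less frequent in strong coding exon regions. GAGAGA stood in 10.2% of the 638 strongest coding exon regions and in 23.6% of the 1781 strongest other autosomal regions. ACACAC stood in 4.23% and 13.6% of the same sets, and CGTCTC in 8.46% and 13.3%. Over all coding exon regions GAGAGA stood in 10.7% and ACACAC in 4.73%, close to the 10.1% and 4.66% of windows around all coding bases. CGTCTC stood in 7.14% of coding exon regions and 6.95% of those windows. Its 8.46% in the strongest coding exon regions was higher, with an interval of 6.42 to 10.9. The homeodomain core TAATTA stood in 5.62% of coding exon regions, 9.26% of others and 6.06% of coding windows. CGTCTC and ACACAC had been chosen for their frequency in strong regions of these data.

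Within genes the summits fell where the coding bases are. Of the coding exon regions, 11.6% lay in the first coding exon of their transcript, 72.0% in internal ones, 15.7% in the last and 0.783% in genes with a single coding exon. The same classes hold 11.4%, 71.9%, 15.7% and 1.01% of autosomal coding bases. When each coding sequence was divided into 10 equal parts, each part held between 9.45% and 10.7% of the regions. In replicate 1 the 10 parts ranged from 8.83% to 11.4% and in replicate 2 from 9.36% to 10.3%. The highest was the first part in replicate 1, and the lowest was that same part in replicate 2. The median coding segment was 258 bases long under coding exon regions and 261 under all coding bases.

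A summit in a coding exon does not make the whole region coding. The median region was 71.5% coding (quartiles 54% and 87%), 765 regions were wholly coding and 5213 were coding for at least 50% of their length. The summit lay within 10 bases of the end of its coding segment in 632 regions, and 666 other autosomal regions had a coding base within 10 bases of theirs. Of the coding exon regions 28.7% lay within 500 bases of an annotated transcript start, against 26.3% of other autosomal regions. Regions touched a neighbour of another class in 484 cases, and in 235 of these the neighbour was the stronger.

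Coding exon regions overlapped replicate regions about as often as others did, and their strength hardly repeated. A region of replicate 1 overlapped 66.6% of them by at least 1 base and a region of replicate 2 overlapped 53.8%. The shares in other autosomal regions were 68.6% and 53.6%. Both replicates had an overlapping region for 1864 coding exon regions (29.2%, 28.1 to 30.3) and 5555 others (31.2%, 30.5 to 31.9), with 30.7% over all autosomal regions. Neither replicate had one for 8.82% and 8.92%. The pooled list was derived from both replicates, so some of this overlap is built in. Between the replicates' own lists, 30.9% of replicate 1 coding exon regions overlapped a replicate 2 region, against 31.7% of others. From replicate 2 it was 28.0% and 32.8%. The overlap of regions placed at random was not computed, so these shares do not show reproducible placement.

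Over the 1864 coding exon regions with both, the log2 signal values of the replicates correlated with a Spearman coefficient of 0.0041 and a Pearson coefficient of 0.0186. These are correlations across regions that share 2 libraries and are given as a description. Of all coding exon regions 552 overlapped another one. Such neighbours can match the same replicate regions, so some pairs of values enter more than once. For the 5555 other autosomal regions Spearman was 0.104, for introns 0.0758 and for intergenic regions 0.117. In the 340 coding exon regions with ranks up to 10000 in both replicates it was 0.0449. The 14 with ranks up to 2000 gave 0.165, against 0.287 for the 176 others of that kind.

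**Figure D3:**
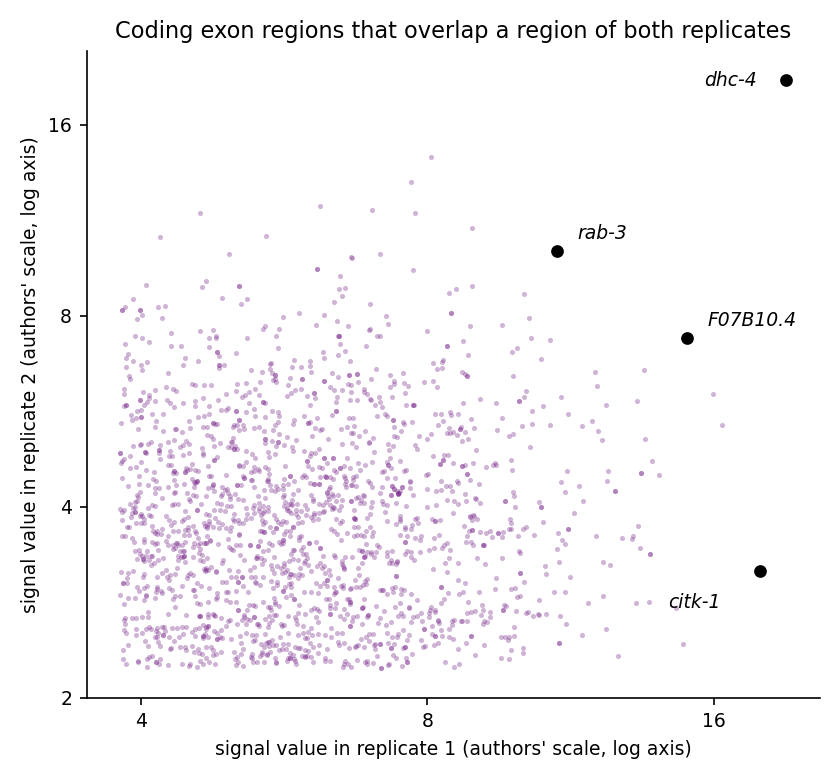
Signal values of the 1864 coding exon regions that overlap a region of both replicates, replicate 1 across and replicate 2 up, both on log axes in the authors' scale. The points form a cloud without a slope, dhc-4 stands alone at the upper right, and rab-3, F07B10.4 and citk-1 are marked for orientation.

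The strongest regions repeated less often in coding exons than elsewhere. Taking each replicate's own summits, 66 coding exon regions were among the 500 strongest of replicate 1, and 2 of these (3.03%, 0.369 to 10.5) overlapped one of the 500 strongest of replicate 2. Of 317 other autosomal regions 45 did (14.2%, 10.5 to 18.5), and of all autosomal ones 12.3%. Starting from replicate 2, 2 of 85 coding exon regions did (2.35%, 0.286 to 8.24) and 44 of 296 others (14.9%, 11.0 to 19.4), with 12.1% of all. Among the 2000 strongest, 12 of 364 coding exon regions of replicate 1 (3.30%, 1.71 to 5.69) and 127 of 1193 others (10.6%, 8.95 to 12.5) overlapped, with 8.93% of all. From replicate 2 it was 11 of 437 (2.52%, 1.26 to 4.46) and 129 of 1119 (11.5%, 9.72 to 13.5), with 9% of all. This comparison was added after the data were seen.

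The few pairs shared at the top mostly left the coding exon in the other replicate. The 2 pairs among the 500 strongest were at rpl-12, a ribosomal protein gene, and at C14B4.2. Their replicate 2 summits lay between genes at rpl-12 and in an intron at C14B4.2. So 0 of the 66 strong coding exon regions of replicate 1 had a partner of that rank with a coding summit, which allows a share of up to 4.55% if a count of 0 is taken to allow 3. Among the 12 pairs of the 2000 strongest, 4 had coding summits in both replicates, at rab-3, F07B10.4, rps-17 and ints-6.

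The 20 strongest coding exon regions had signal values from 18 to 26.9 in the pooled list. Their −log10 q there ran from 0.565 at nduf-6 to 1.48 at dhc-4. Their median rank was 372 in replicate 1, and that of the 18 with a region in replicate 2 was 2792.5 there, and 13 and 5 of them were among the 500 strongest of the replicate in that order. Of the 38 replicate regions that overlapped them, 31 had their own summit in a coding exon and 7 did not. Internal coding exons held 13, the first coding exon 5 and the last 2.

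The strongest coding exon region lay at dhc-4 (WBGene00012272), a dynein heavy chain gene. The pooled region spanned III 10989651 to 10990050 with a signal value of 26.9, rank 46, and 1 region was thus both coding and in the optimal list. The values were 19.1 (rank 38) in replicate 1 and 18.8 (rank 10) in replicate 2, so both replicates were high. Its summit, 10989851, was the base numbered 17 of coding exon 32 of 35, next to the 360-base intron before that exon.

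The dhc-4 region was the weaker of an overlapping pair, with a region of signal value 35 and rank 16 whose summit lay in the intron at 10989651. The replicate regions that matched the coding one had their summits in the intron as well, at 10989800 in replicate 1 and 10989649 in replicate 2. In neither replicate did the dhc-4 summit itself lie in a coding exon. Of the 32-base words in the dhc-4 region 79.4% occurred once in the genome, the lowest share among the 20 strongest. By the pooled lists, 1 coding exon region, that at dhc-4, and 59 others were among the 500 strongest of both replicates, with 0.248% over all autosomal regions.

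rab-3, which encodes a small GTPase of synaptic vesicles, had the coding region that repeated best with its summit in the exon throughout. The region at II 5722563 to 5722962 had 22.8 in the pooled list (rank 84), 11.0 in replicate 1 (rank 787) and 10.1 in replicate 2 (rank 174). The 3 summits, at 5722763, 5722782 and 5722757, all lay in coding exon 5 of 6, a stretch of 107 bases. F07B10.4 on V, summit 11261833 in coding exon 3 of 5, had 24.1 (rank 67), 15 (rank 128) and 7.38 (rank 1040) in the same order. Both were higher than most coding exon regions in each replicate, and replicate 2 placed F07B10.4 much lower than replicate 1 did.

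Other strong pooled regions rested on 1 replicate. The region at citk-1, a relative of citron kinase, was the strongest coding exon region of replicate 1 with 17.9 (rank 46). In replicate 2 it had 3.17 (rank 17658), and its pooled value was 21.2. ptr-22, a Patched-related gene, had 20.5 pooled, 12.6 in replicate 1 (rank 350) and 4.24 in replicate 2 (rank 9032). D1044.7 (19) and nduf-6, a subunit gene of mitochondrial complex I (18), had ranks 50 and 117 in replicate 1 and no region in replicate 2. The replicate 1 summit at D1044.7 lay in an intron.

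The reverse was seen at jmjd-4, a jumonji domain gene, with 18.9 pooled, rank 8037 in replicate 1 and rank 203 in replicate 2. T28C6.7 (18.2) likewise had ranks 10596 and 255. The region at ugt-53, a glucuronosyltransferase gene, was the strongest coding exon region of replicate 2 with 18.9 (rank 8). It had 13.9 in the pooled list and no region in replicate 1.

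Most of the 20 ranked higher in the pool than in either replicate, with the widest gaps at pals-15 and gex-3. The 20 were chosen by pooled signal value, and that choice favours such gaps. At pals-15 the pooled value of 19.4 (rank 183) went with rank 4766 in replicate 1 and rank 8789 in replicate 2. gex-3, a subunit gene of the WAVE actin regulator, had 18.5 pooled with ranks 3278 and 1206. The remaining members of the 20 were at mdt-26 (a Mediator subunit), akap-1 (an A-kinase anchor), gei-4, col-151 (a collagen), C15A11.7, Y57G11C.43, epg-5 (autophagy), F01G4.6 and mrps-28 (mitochondrial ribosome). They had pooled values from 18.8 to 20.4. Of these, mdt-26 and akap-1 were within the 2000 strongest of both replicates, with replicate 2 summits in an intron.

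Short RNA genes stood beside several strong coding exon regions. Regions that overlapped an snRNA, snoRNA, tRNA, rRNA or miRNA gene were 52 of 6383 coding exon regions (0.815%, 0.609 to 1.07) and 213 of 17810 others (1.2%, 1.04 to 1.37). Among the 500 strongest pooled regions they were 4 of 69 (5.80%, 1.60 to 14.2) and 18 of 318 (5.66%, 3.39 to 8.80). The coding exon regions among them included F59G1.4 at the miRNA gene lin-4 (signal value 17.8), plpr-1 at the snoRNA gene T06D8.11 (16.9), and nol-56, a small nucleolar ribonucleoprotein gene, at the snoRNA genes K07C5.10 and K07C5.12 (16.4). Among the strong regions the 2 shares had overlapping intervals. These counts were made after the data were seen, and whether the short RNA genes bear on the signal was not tested.

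Across genes the regions followed coding length. Genes with up to 500 coding bases held a coding exon region in 9.08% of cases and those with over 6000 bases in 92.0%. Per 100 kb of coding sequence the same classes held 28.5 and 27.3 regions, and the classes between held from 30.03 to 30.84. The rate over all autosomal genes was 30.2 per 100 kb (29.4 to 30.9), with 29.5 in replicate 1 and 33.1 in replicate 2. At least 3 regions lay in 233 genes in the pooled list, 230 in replicate 1 and 350 in replicate 2.

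The genes with most regions were mostly very long ones. unc-44, the neuronal ankyrin, held 10 regions in 21.8 kb of coding sequence, 11 in replicate 1 and 9 in replicate 2. At the rate of all genes it would hold 6.56. cpna-2, a copine domain gene, held 9 in the pooled list (8 and 9 in replicates 1 and 2) and cla-1, an active zone protein gene, held 8 (9 and 7). unc-89, the worm obscurin of muscle, also held 9, but replicate 1 had 2 and replicate 2 had 10. cdh-4, a Fat-like cadherin gene, held 7, with 3 and 11.

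Shorter genes with many regions were rol-3, a receptor tyrosine kinase gene, and obr-4, an oxysterol-binding protein relative. rol-3 held 8 regions in 7.44 kb, where the rate of all genes gives 2.24, with 3 in replicate 1 and 5 in replicate 2. obr-4 held 6 in 2.03 kb, where that rate gives 0.612, with 3 in each replicate. Its regions with summits at 5833751, 5834075 and 5834292 each overlapped the next and shared a replicate region with it. The 6 are therefore not all separate sites. The 6 at obr-4 had pooled signal values from 6.638 to 10.399, well below the strongest. C48E7.6, chd-7 (a chromatin remodeller) and lam-3 (a laminin alpha chain) completed the 10 with 6 each, ties being taken by name.

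The longest gene of all held few in the pooled list. ttn-1, the titin relative, has 55.4 kb of coding sequence and held 6 regions, where the rate of all genes gives 16.7; replicate 1 had 7 and replicate 2 had 13. dig-1, a giant matrix protein gene, held 2 (3 and 10 in replicates 1 and 2), where the rate gives 11.8, and anc-1, a nuclear anchorage protein gene, held 2 (1 and 2), where it gives 7.74. The 32-base words of their coding sequence occurred once in the genome for 79.2% of words in ttn-1, 72.6% in dig-1 and 38.4% in anc-1. In unc-44 the share was 94.7%. cla-1, at 74.6%, held 8 regions where the rate gives 8.08. dhc-1 and let-805, both at 100%, held 2 each in the pooled list, where the rate gives 4.13 and 4.07. In replicate 1 these 2 genes held 2 and 1, and in replicate 2 they held 5 each. Whether the unique share bears on the counts was not tested. dig-1, anc-1, dhc-1 and let-805 were named after their values were seen.

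**Figure D4:**
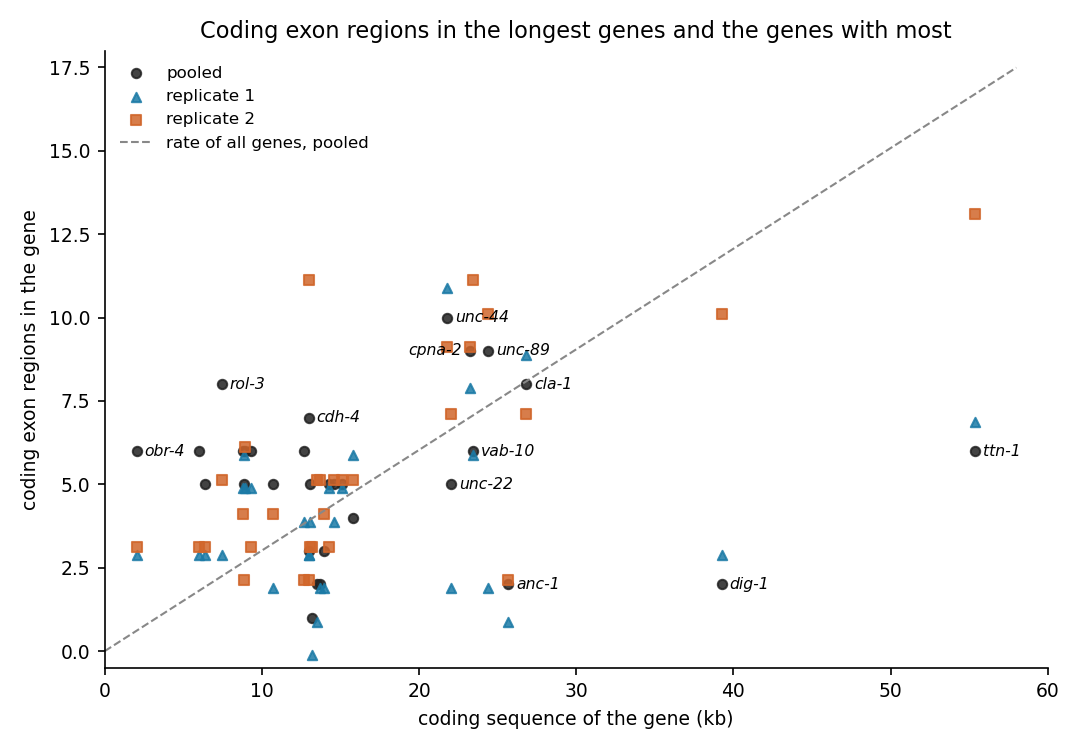
Number of coding exon regions against coding length for the 20 genes with most regions and the 20 longest, in the pooled list (circles, labelled), replicate 1 (triangles) and replicate 2 (squares); replicate symbols are shifted slightly up or down, and the dashed line is the pooled rate of all autosomal genes. In the pooled list rol-3 and obr-4 lie far above the line, while ttn-1, dig-1 and anc-1 lie far below it. Some replicate symbols lie nearer the line, with 3 at rol-3 in replicate 1, and 10 at dig-1 and 13 at ttn-1 in replicate 2.

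Repeated coding sequence held far fewer regions. The 753 genes with fewer than 50% of their coding words unique held 12 regions in 704 kb, 1.70 per 100 kb (0.881 to 2.98), with 2.13 in replicate 1 and 3.41 in replicate 2. The 977 genes with 50% to 90% unique held 17.8 (15.5 to 20.4), with 18.5 and 22 in the replicates. The 14252 genes with at least 99% unique held 32.2 (31.4 to 33.1), with 31.5 and 35. These classes were set after the data were seen. The mapping rule of the authors is not given in the sources used here, and its part in this was not tested.

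Histone genes held no region in the pooled list. The 68 histone genes held 0 regions in 24.8 kb, which allows up to 12.1 per 100 kb if a count of 0 is taken to allow 3, and 25.2% of their coding words were unique. Replicate 1 had 8.08 per 100 kb there and replicate 2 had 4.04. The 43 major sperm protein genes, which encode the sperm cytoskeleton, held 2 regions, at ssp-10 and msp-31, 13 per 100 kb (1.57 to 47), with 33.7% of words unique, and this interval includes the rate of all genes. Genes of the F-box, MATH and BTB families, substrate adaptors of protein degradation, held 20.5 per 100 kb (16.3 to 25.4) in 395 genes, with 20.5 in replicate 1 and 26.7 in replicate 2. Their unique share was 90.8%, against 95.7% over all genes, and their strongest region was at fbxb-79, with 14.2. Cuticle collagen genes, at 89.8%, held 33.6 per 100 kb, with 8 of their 64 regions at rol-3, a receptor tyrosine kinase gene. Whether the unique share bears on these rates was not tested.

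Pan-neuronal and synaptic genes had the highest rate of the 28 gene lists in the pooled list, but in neither replicate. They held 41 regions in 16 of 21 genes, 46 per 100 kb (33 to 62.4), and 38.2 in each replicate. The highest rate in replicate 1 was 43.1, in neuropeptide and insulin-like genes. In replicate 2 it was 53.2, in genes of pharyngeal muscle structure. unc-44 and cla-1 accounted for 10 and 8 of the 41. rab-3 had the strongest region, and those next in strength were at unc-44 (11.5) and unc-26, the synaptojanin gene (9.84). The rates over all genes to set beside these are 30.2 in the pooled list, 29.5 in replicate 1 and 33.1 in replicate 2.

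In the pooled list, mesoderm, muscle and homeobox genes had intervals that included the rate of all genes. Mesoderm and coelomocyte genes held 5 regions in 4 of 16 genes, 18.9 per 100 kb (6.13 to 44.1), with 3.78 in replicate 1 and 22.7 in replicate 2. They included mls-1, a T-box gene of uterine muscle fate (13.9), and rme-8, an endocytosis gene (11.1). Body muscle genes held 23.0 (16.2 to 31.7), with 14.9 and 32.3, led by ketn-1 (13.8), unc-54, the major myosin heavy chain (10.8), and pat-3, an integrin (10.7). Homeobox genes held 32.9 (21.3 to 48.6), with 34.3 in each replicate, led by ceh-38 (13.3) and ceh-12 (12). No intervals were made for the replicate rates. Those of mesoderm and body muscle genes lay well below the 29.5 of all genes in replicate 1. In replicate 2 they were also below its 33.1, body muscle only slightly.

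Most lists could not be told from all genes by their pooled intervals. Of 28 lists, 13 were above the rate of all genes in the pooled list and 14 in each replicate. In all 3 lists of regions alike, 9 gene lists were above and 10 below. The pooled interval left out the rate of all genes for 3 lists, namely histones, the F-box, MATH and BTB families, and pan-neuronal genes. The intervals were not widened for the number of lists, and among 28 lists some may leave out that rate by chance. The 1276 chemoreceptor genes, the largest list, held 28.3 per 100 kb (25.5 to 31.4). Nuclear hormone receptors held 33.2 (26.9 to 40.5), with the strongest region at nhr-49, a regulator of fat metabolism (15.6). Cuticle collagens, a list that by its naming rule also took in rol-3, held 33.6 (25.8 to 42.9).

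Ribosomal protein genes and translation factors held 11 and 8 regions in 38.5 and 18.9 kb of coding sequence. The replicates' rates lay far apart, without a test of the difference. Ribosomal protein genes held 28.5 regions per 100 kb (14.3 to 51.1) in the pooled list, 18.2 in replicate 1 (7 regions) and 49.3 in replicate 2 (19 regions). rps-17 had the strongest, 16.9 pooled, with 9.94 (rank 1384) in replicate 1 and 7.11 (rank 1250) in replicate 2. rpl-9 had 9.07 (rank 328) in replicate 2 and no region in replicate 1. Translation factors held 42.4 pooled (18.3 to 83.5), 15.9 in replicate 1 (3 regions) and 53 in replicate 2 (10 regions). The coding sequence of unc-39 (V 14373074 to 14375881), the tagged gene, and of unc-119 (III 10902641 to 10908935), whose mutant allele the strain carries, held 0 coding exon regions in all 3 lists of regions. They have 1.00 and 0.732 kb of coding sequence, less than the length that holds 1 region at the rate of all genes.

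**Figure D5:**
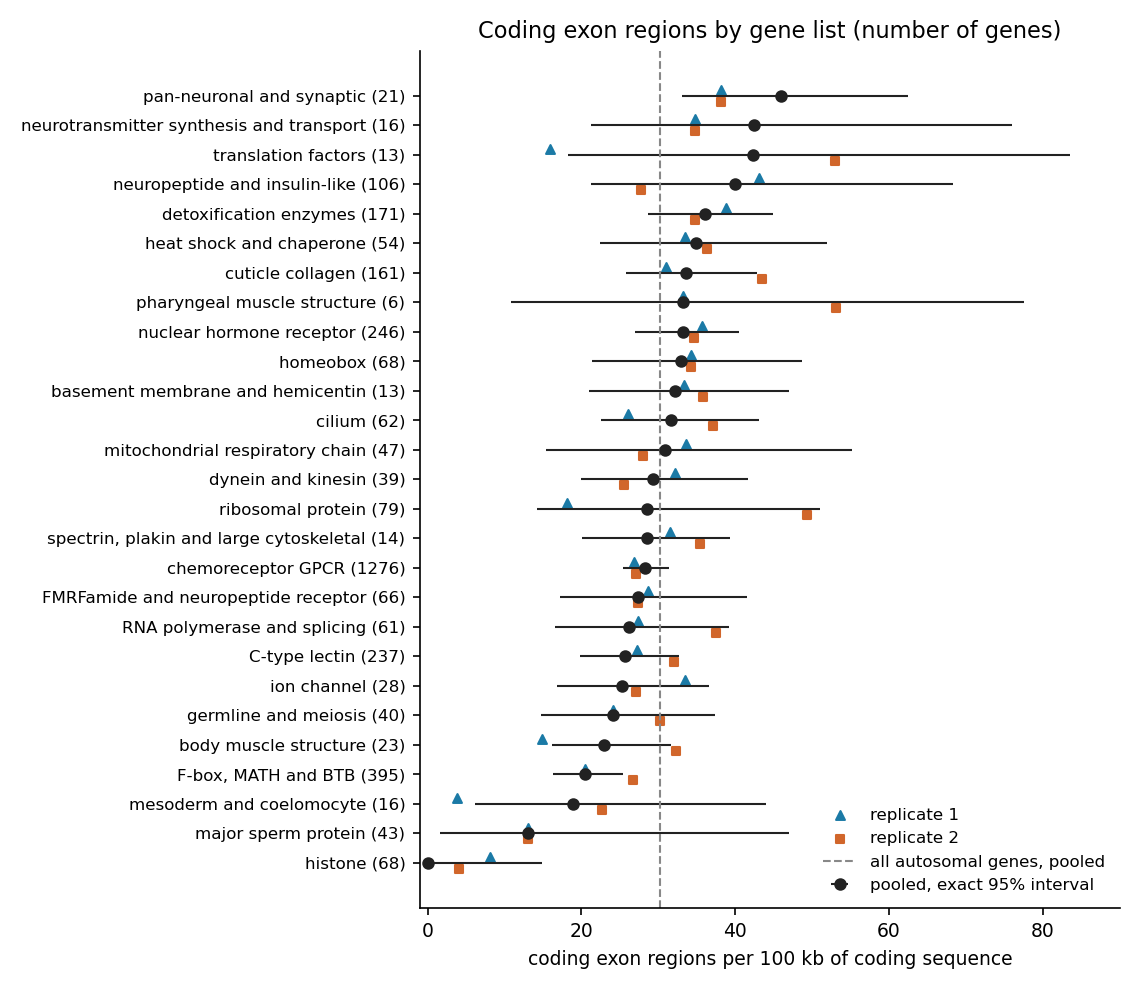
Coding exon regions per 100 kb of coding sequence for the gene lists with at least 3 genes (number of genes in brackets), in the pooled list (circles with exact 95% intervals), replicate 1 (triangles) and replicate 2 (squares); the dashed line is the pooled rate of all autosomal genes, 30.2. Histones lie at 0 and pan-neuronal genes at 46, and most intervals cross the line.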

How the data were processed

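Only the lists on ce11 were used. Per the labels and the files deposited with the samples, the authors derived each replicate's list from its own alignments and a further file, here taken as the control, and the pooled list from both; the optimal list came from these by IDR. Each region carries, as deposited by the authors, a signal value and a −log10 q-value. The aligner, peak caller, control and depth were not given in the sources used here.

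Summits were placed on Ensembl release 115 genes of WBcel235, the assembly of ce11, with coding sequence taking precedence over untranslated exons, introns and other genes. Per-base densities, G+C content, 9 short words, overlaps of at least 1 base and the uniqueness of 32-base words were computed by script. Summit classes, overlaps, G+C content and coding positions were checked on simulated regions, and the other steps were not. The scripts used matplotlib 3.10.9, scipy 1.17.1, pandas 2.3.3 and numpy 2.4.6 under Python 3.11.15. Intervals are exact Clopper-Pearson or Poisson at 95%.

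The coding exon regions, the 28 gene lists and the words were chosen with earlier results of these data known. Genes named are those of the 20 strongest regions, of regions in the optimal list or among the 500 strongest of both replicates, the 10 genes with most regions, up to 3 per gene list, unc-39 and unc-119. Others are marked or serve to place a region. 1 item beside dhc-4 is not reported here. Alternatives left out each replicate, required 50% of a region to be coding, took the 5000 strongest, left out starts or repeated sequence, and changed windows.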

Additional observations from a re-analysis of the deposited data

How the results depend on the processing

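The share of coding exon regions (26.4%) was 25.8% to 28.8% leaving out a replicate and 24.0% in the 5000 strongest. Their density relative to other bases (1.04) was 1.01 to 1.17 leaving out a replicate and 0.918 in the 5000 strongest. Their share in the 500 strongest minus that in the list was -8.55 percentage points, -8.56 to -6.50 leaving out a replicate and -6.19 within the 5000 strongest. The excess in internal exons (0.0845 points) was -0.832 to 1.55 leaving out a replicate, -1.03 in the 5000 strongest and 4.40 with at least 50% of the region coding, a rule that favours long exons. The G+C difference (4.81 points) was 5.03 to 5.13 leaving out a replicate, 4.70 with at least 50% coding, 3.41 in the 5000 strongest, 5.12 away from starts, and 6.40 and 3.58 with 50 and 200 bases to each side. For the SIX4-type core (2.12 points) it was 1.88 to 3.4 leaving out a replicate and 3.80 with 200 bases. Genes with at least 3 regions (233) were 230 to 350 leaving out a replicate and 6 in the 5000 strongest, where fewer regions enter. Regions found in both replicates (29.2%) were 20.01% with 200 bases of overlap, 62.1% in the 5000 strongest and 17.2% with coding summits in both, and Spearman (0.0041) was 0.165 in the 2000 strongest of each and -0.00799 with coding summits in both.

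The CGTCTC difference turned to -3.65 points in the 5000 strongest and -0.316 with 200 bases. The median signal difference (0.0023) turned to -0.229 in the 5000 strongest and -0.0196 in unique sequence. The causes were not tested. Requiring coding summits in both replicates and leaving out dhc-4 or the regions at short RNA genes were added after the data were seen, and those left out moved no result they were run on. No paired analysis was possible because there is a single group. With unknown depth and a median −log10 q of 0.0350 in coding exon regions, most of them cannot be told from background. Rates and counts by gene describe regions and not established UNC-39 sites.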
